A study of Mus musculus with 10 samples.

Results

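Cytosolic ribosomal proteins are the protein subunits of the ribosome that translates nuclear messages outside the mitochondrion. They were chosen by gene symbol (Rpl, Rps or Rplp followed by a number, or Rpsa) with a mean of 1 FPKM or more, leaving out the Rps6k kinases and pseudogenes. The rule matched 90 symbols and left out 8 kinases, which gave 82 of the 11228 genes in the expression table. Of the 82, 46 belong to the large subunit, 3 of them to its stalk, and 31 to the small subunit. The symbol rule also took 4 paralogues (Rpl7l1, Rpl22l1, Rpl36al and Rps27l) and Rps19bp1, a protein that binds Rps19 and is no ribosomal subunit. Fau, which encodes a subunit fused to a ubiquitin-like part, and Gnb2l1 (Rack1), a scaffold on the small subunit, are missed by the rule and are given separately.

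The libraries came from mouse myotubes, multinucleate muscle cells, differentiated in vitro for 2 days. In 2 libraries the muscle long non-coding RNA Charme had been depleted with the antisense gapmer treatment named GAP-2, in 2 with the treatment named GAP-2/3, and 2 were treated with the control gapmer GAP-scr; the libraries of each group are called A and B. A ChIRP-seq assay of chromatin pulled down with Charme even or odd probes, LacZ control probes or no pull-down (input) had 1 library of each kind and was deposited as merged peaks. The labels do not say whether A and B were separate cultures, so the p-values rest on a spread that may be technical only. All 12 myotube markers had a row, with summed levels of 9852 to 10919 FPKM in the 4 gapmer libraries against 16857 and 17181 FPKM in GAP-scr. Of 6 undifferentiated myoblast markers 5 had a row, and they summed to 141 to 188 FPKM in the gapmer libraries against 90.7 and 96.7 FPKM in GAP-scr. In bulk RNA, fewer cells of a type and less RNA per cell cannot be told apart. Fibroblast markers had 4 of 6 rows and summed to 796 to 1256 FPKM in the gapmer libraries against 1197 and 1226 FPKM in GAP-scr. The markers within this sum differed. Dcn had 71.3 to 128 FPKM in the gapmer libraries against 52.6 and 37.2 FPKM in GAP-scr. Col1a1 had 789 and 632 FPKM in GAP-2, 385 and 456 FPKM in GAP-2/3 and 778 and 808 FPKM in GAP-scr. Cd68 was the 1 macrophage marker with a row, at 0.834 to 3.54 FPKM in the gapmer libraries against 0.374 and 0.917 FPKM in GAP-scr. Of 4 endothelial and 4 adipocyte markers, 0 had a row in the table used here. The part of these cell markers in the ribosomal protein results was not tested.

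Ribosomal protein messages are among the most abundant in growing cells, and their proteins are made in matched amounts, since subunits left without a partner are degraded. In vertebrates these messages begin with a run of pyrimidines, the 5′ terminal oligopyrimidine or TOP motif, through which mTORC1 and the RNA-binding protein LARP1 set how well they are translated and how stable they are. Growth of muscle depends on new ribosomes, and Rpl5 and Rpl11, when not built into ribosomes, bind Mdm2 and stabilise p53.

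RefSeq promoter entries, on build GRCm38.p6, were found for 62 of the 82 genes. The windows below run from 40 bases before to 20 after the annotated start; they are shown for the 1 gene that fell (Rplp2), for 4 that rose (Rpl35, Rpl4, Rps25 and Rps4x) and for the 2 with the highest levels (Rps12 and Rpl41). Capitals mark each run of at least 6 pyrimidines that starts with C.
Rplp2, chr7:141447611-141447670 (plus strand): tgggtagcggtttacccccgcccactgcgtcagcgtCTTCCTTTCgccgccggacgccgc
Rpl35, chr2:39005112-39005171 (minus strand): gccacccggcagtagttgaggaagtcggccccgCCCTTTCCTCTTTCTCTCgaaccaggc
Rpl4, chr9:64173347-64173406 (plus strand): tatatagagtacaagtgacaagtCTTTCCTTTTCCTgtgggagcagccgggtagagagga
Rps25, chr9:44407674-44407733 (plus strand): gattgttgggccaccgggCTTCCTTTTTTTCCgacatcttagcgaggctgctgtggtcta
Rps4x, chrX:102189372-102189431 (minus strand): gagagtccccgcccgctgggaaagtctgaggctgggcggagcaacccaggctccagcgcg
Rps12, chr10:23787190-23787249 (minus strand): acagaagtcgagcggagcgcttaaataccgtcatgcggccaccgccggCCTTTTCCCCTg
Rpl41, chr10:128549149-128549208 (minus strand): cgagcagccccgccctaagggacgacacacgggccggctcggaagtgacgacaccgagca
A run of C followed by at least 5 C or T, starting within 10 bases of the annotated start on the gene's strand, was present in 33 of the 62 genes (53.2%). The same run was found in 23.4% of 8276 tested genes with an entry and in 21.9% of 27025 genes with an entry in the table. Rplp2, Rpl35 and Rps12 had it, whereas in Rps25 and Rpl4 the run lay further upstream and in Rps4x and Rpl41 no such run was in the window. Of the genes described below, 4 of 10 that rose and had an entry held the run at the start, as did the 1 that fell and 28 of 51 that did not pass the test. Over the whole window of 300 bases and on both strands, the letters CTCTTTC, which can lie inside the run, were found in 29.0% of the 62 genes, against 8.40% of tested genes and 9.28% of all genes. CCGGAAG, the core of ETS factor sites, was found in 40.3%, against 21.2% of tested genes and 9.93% of all genes. TATAAA was found in 11.3%, against 8.40% and 15.7%, and GATGGCGG, a YY1 core, in 4.84%, against 4.46% and 1.97%. These are matches of letters only, and an annotated start can lie some bases from the one used in myotubes.

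Levels are given in FPKM, a fragment number corrected for transcript length and library size, so that genes can be compared per length. The 82 genes had a median level of 1359 FPKM over the 6 libraries, against 13.2 FPKM over the 10993 tested genes. They filled 53 of the 100 highest places in the table and 7 of the 20 highest. In all, 17 genes were at 2000 FPKM or more, 36 between 1000 and 2000, 13 between 500 and 1000, 12 between 100 and 500 and 4 below 100. The large subunit had a median of 1493 FPKM and the small subunit of 1172 FPKM. Mitochondrial ribosomal proteins, made for the organelle's own ribosome, had a median of 37.0 FPKM over 76 genes, and none was among the 100 highest.

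Rpl41, a very short basic protein at the interface of the subunits, had the highest level, at 4965 and 5213 FPKM in GAP-2, 5211 and 5515 FPKM in GAP-2/3 and 4859 and 5563 FPKM in GAP-scr. Rps12, a small subunit protein, had 5492 and 5329 FPKM in GAP-2, 5318 and 4934 FPKM in GAP-2/3 and 4341 and 5582 FPKM in GAP-scr. For both genes the GAP-scr libraries spanned the gapmer libraries, and the order of the pair does not differ beyond this spread. Rpl23a, Rpl10 and Rpl35 followed, with means of 4222, 3285 and 2935 FPKM over the 6 libraries.

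**Figure D1:**
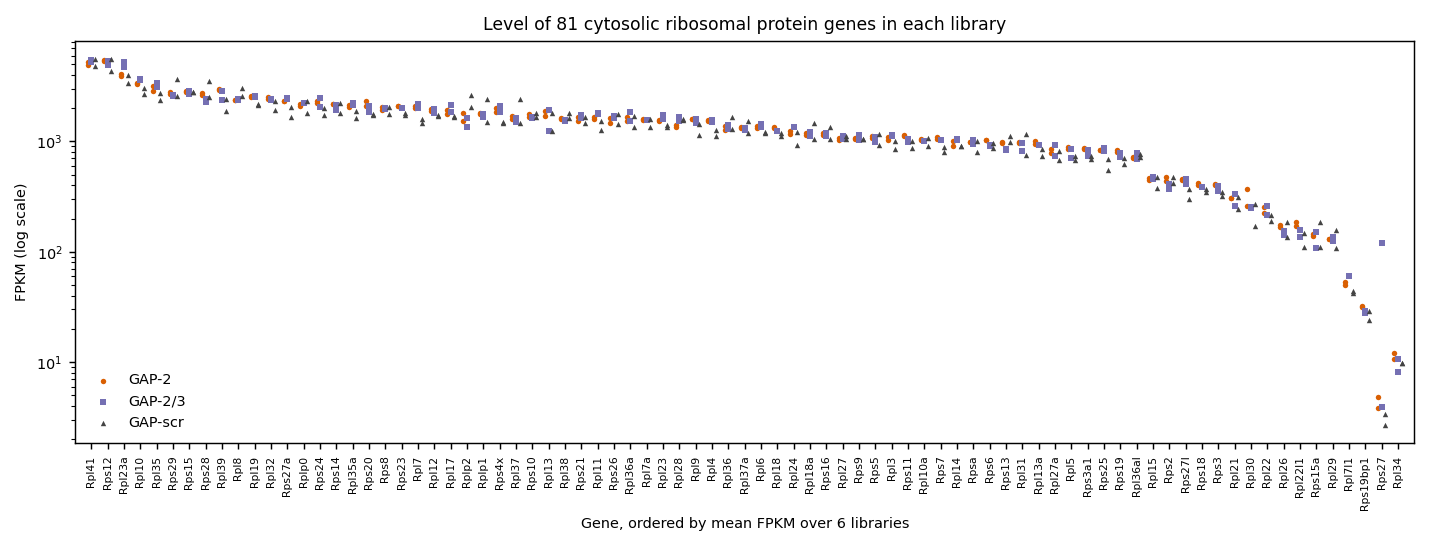
Level of 81 of the genes in FPKM on a log axis, ordered by mean over the 6 libraries, with a point for each library of GAP-2, GAP-2/3 and GAP-scr. Most genes lie above 500 FPKM, Rpl34 lies near 10 FPKM, and Rps27 has 1 GAP-2/3 library at 120 FPKM with the other 5 libraries below 5 FPKM.

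The lowest levels belonged to Rpl34, with 10.7 and 12.2 FPKM in GAP-2, 8.14 and 10.7 FPKM in GAP-2/3 and 9.73 and 9.90 FPKM in GAP-scr. Its processed pseudogene Rpl34-ps1 had 1205 and 1323 FPKM in GAP-2, 1381 and 1300 FPKM in GAP-2/3 and 1179 and 1424 FPKM in GAP-scr, close to the median of the other ribosomal protein genes. A gene and a near-identical copy can share or exchange reads in counting, so the level of Rpl34 itself is uncertain. RefSeq names 319 pseudogenes after 63 of the 82 genes, most after Rpl31 (24) and Rps12 (23), and the same limit holds for those genes.

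Rps27, a zinc-binding small subunit protein, had 3.87 and 4.87 FPKM in GAP-2, 3.89 and 120 FPKM in GAP-2/3 and 3.37 and 2.71 FPKM in GAP-scr. Library B of GAP-2/3 stood far above the other 5. The log2 change of the mean of both gapmer arms against GAP-scr was 1.504 ± 0.84 (SE) and did not pass the test (limma adjusted p = 0.18), and without that library it was 0.35. RefSeq names 2 pseudogenes after Rps27, so the limit given for Rpl34 holds here, and the level of Rps27 itself is uncertain. Its paralogue Rps27l, a p53 target, was listed far higher in every library and is described with the genes that rose. Rps19bp1 had 31.4 and 32.2 FPKM in GAP-2, 29.0 and 27.7 FPKM in GAP-2/3 and 24.2 and 29.0 FPKM in GAP-scr. Rpl7l1, the fourth below 100 FPKM, is described with the genes that rose. Next came Rpl29, with 108 to 157 FPKM over the 6 libraries, and both of its extremes were GAP-scr libraries.

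Together the 82 genes made up 21.1% and 21.0% of the summed FPKM in the GAP-2 libraries, 20.5% and 20.3% in the GAP-2/3 libraries, and 19.4% and 20.6% in GAP-scr. Library B of GAP-scr lay inside the range of the gapmer libraries and library A below it. The mean of the 4 gapmer libraries exceeded that of GAP-scr by 0.72 percentage points, by 0.13 points without GAP-scr library A and by 1.31 points without GAP-scr library B. Without GAP-2 library A and GAP-scr library A, an alternative added after the data were seen, the difference was -0.00307 percentage points. The large subunit took 12.3% to 12.5% of the sum in the gapmer libraries against 11.7% and 12.2% in GAP-scr, and the small subunit 7.70% to 8.37% against 7.50% and 8.14%.

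The comparison of gapmer with control libraries asks what depletion of Charme does to gene expression in myotubes. Across the 82 genes the differences were small. For the mean of both gapmer arms against GAP-scr, 13 genes rose (15.9%) and 1, Rplp2, fell, at an adjusted p under 0.05 in limma on log2(FPKM + 1) over all tested genes. Of all tested genes 24.5% were called higher and 9.57% lower. The median log2 change was 0.14 over the 82 genes and 0.10 over all tested genes, a difference of 0.04. Of the 82 estimates 60 were above 0, as were 6887 of the 10993 over all tested genes. The large subunit with its stalk had 6 genes higher and 1 lower of 46 (median log2 change 0.14), the small subunit 5 higher and 0 lower of 31 (median 0.10), and the other 2 that rose were the paralogues Rps27l and Rpl7l1. All 4 gapmer libraries were above both GAP-scr libraries in 32 genes (39.0%, against 31.9% of all tested genes), and below both in 3 (Rpl38, Rpl8 and Rplp2; 14.0% of all tested genes).

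**Figure D2:**
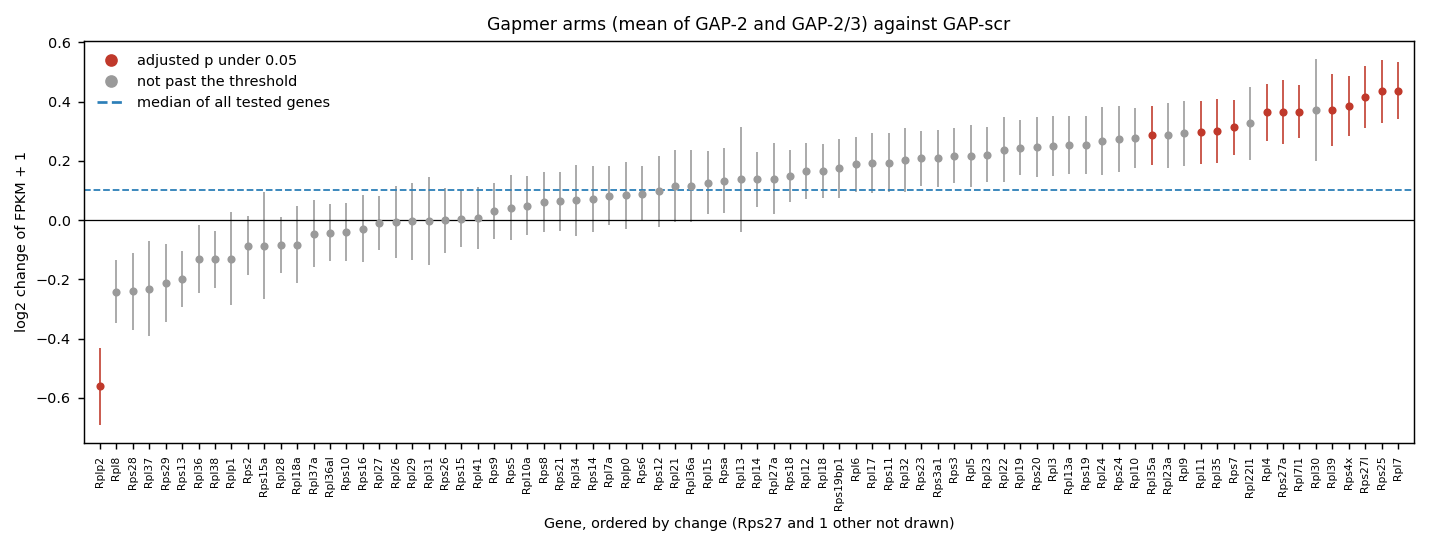
Log2 change of FPKM + 1 for the mean of both gapmer arms against GAP-scr, with its SE as a bar, for 80 of the genes ordered by change; Rps27 is among those not drawn. Rplp2 stands below the others at -0.56, the genes that rose lie between 0.29 and 0.44, and the dashed line is the median of all tested genes at 0.10.

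Rpl7, a large subunit protein, had 1993 and 2089 FPKM in GAP-2, 2190 and 2024 FPKM in GAP-2/3 and 1582 and 1481 FPKM in GAP-scr. All 4 gapmer libraries were above both GAP-scr libraries. Its log2 change was 0.44 ± 0.10 (SE; limma adjusted p = 0.00626), which is 0.33 above the median of all tested genes. Of the 13 genes that rose, Rpl7 was the 1 that passed in each of 14 alternative fits, with log2 changes of 0.34 to 0.50. Its paralogue Rpl7l1, which acts in assembly of the large subunit, had 49.5 and 52.9 FPKM in GAP-2, 60.8 and 60.1 FPKM in GAP-2/3 and 42.0 and 43.9 FPKM in GAP-scr. The 3 groups did not overlap, and the log2 change was 0.37 ± 0.09 (limma adjusted p = 0.0100).

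Rps25, a small subunit protein that some viral and cellular messages need for initiation, had 831 and 831 FPKM in GAP-2, 868 and 812 FPKM in GAP-2/3 and 692 and 552 FPKM in GAP-scr. The gapmer libraries lay close together and above both GAP-scr libraries, which differed more from each other. Its log2 change was 0.43 ± 0.11 (limma adjusted p = 0.0106). Rps27l had 447 and 459 FPKM in GAP-2, 456 and 413 FPKM in GAP-2/3 and 369 and 299 FPKM in GAP-scr, a log2 change of 0.42 ± 0.11 (limma adjusted p = 0.0122). Rps4x, the X-linked form of a small subunit protein, had 1862 and 1993 FPKM in GAP-2, 2096 and 1833 FPKM in GAP-2/3 and 1481 and 1494 FPKM in GAP-scr. Its control libraries agreed closely, no gapmer library overlapped them, and the log2 change was 0.39 ± 0.10 (limma adjusted p = 0.0132). Rpl39, a small protein that lines the exit tunnel, had 2960 and 2906 FPKM in GAP-2, 2865 and 2369 FPKM in GAP-2/3 and 2404 and 1897 FPKM in GAP-scr. Library B of GAP-2/3 was just below library A of GAP-scr, the 1 overlap among the 13 genes, and the log2 change was 0.37 ± 0.12 (limma adjusted p = 0.0355).

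The other 7 genes that rose had log2 changes of 0.29 to 0.36. Among them were Rpl4, which reaches into the exit tunnel, Rps27a, made as a fusion with ubiquitin, Rpl35 at the mouth of the tunnel, Rpl11 of the 5S particle, and Rps7 and Rpl35a, which are mutated in human Diamond-Blackfan anaemia. Rpl11, Rpl35 and Rpl35a were nearest to the threshold (limma adjusted p of 0.0449 to 0.0489). Rpl35a had 2147 and 2071 FPKM in GAP-2, 2206 and 2150 FPKM in GAP-2/3 and 1882 and 1641 FPKM in GAP-scr. Just outside the threshold lay Rpl10, a late-joining large subunit protein, with a log2 change of 0.28 ± 0.10 (limma adjusted p = 0.0514). Rpl10 had 3299 and 3380 FPKM in GAP-2, 3623 and 3647 FPKM in GAP-2/3 and 2700 and 3060 FPKM in GAP-scr, without overlap.

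Rplp2 is one of the acidic proteins of the stalk, which draws elongation factors to the ribosome. It had 1809 and 1534 FPKM in GAP-2, 1349 and 1616 FPKM in GAP-2/3 and 2034 and 2631 FPKM in GAP-scr. Every gapmer library was below both control libraries, although the libraries within each group also differed. The log2 change was -0.56 ± 0.13 (limma adjusted p = 0.00778), or -0.66 relative to the median of all tested genes. Without library A of GAP-2/3 the log2 change was -0.50 and no longer passed. Its stalk partner Rplp1 had 1806 and 1772 FPKM in GAP-2, 1780 and 1653 FPKM in GAP-2/3 and 1503 and 2446 FPKM in GAP-scr, so the control libraries lay on either side of all gapmer libraries (log2 change -0.13 ± 0.16, limma adjusted p = 0.54). Rplp0, the base of the stalk, had 2094 and 2196 FPKM in GAP-2, 2226 and 2239 FPKM in GAP-2/3 and 1820 and 2342 FPKM in GAP-scr (log2 change 0.08 ± 0.11, limma adjusted p = 0.59).

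**Figure D3:**
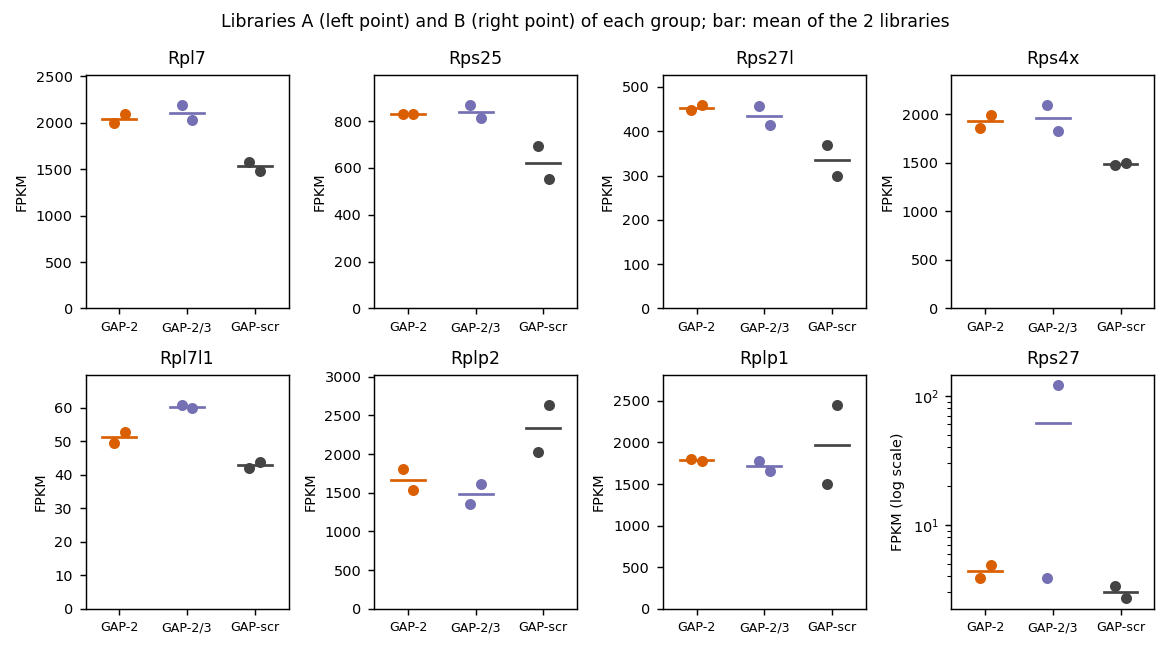
FPKM of 8 genes in libraries A and B of GAP-2, GAP-2/3 and GAP-scr, with the mean of each pair as a bar; Rps27 is on a log axis and the others start at 0. Rpl7, Rps25, Rps27l, Rps4x and Rpl7l1 lie higher and Rplp2 lower in every gapmer library, Rplp1 is spread by its controls, and Rps27 is high in 1 library.

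Control libraries differed from each other in these genes more than gapmer libraries did. The SE given with each change rests on a spread shared by all groups, so it can understate the spread of the controls. The median absolute difference between libraries A and B was 0.05 on the log2(FPKM + 1) scale in GAP-2, 0.11 in GAP-2/3 and 0.22 in GAP-scr, against 0.09, 0.13 and 0.16 over all tested genes in the same order of groups. In GAP-scr, 8 genes differed by at least 0.5. The widest was Rps15a, with 139 and 143 FPKM in GAP-2, 152 and 109 FPKM in GAP-2/3 and 110 and 186 FPKM in GAP-scr. Rpl37 had 1706 and 1580 FPKM in GAP-2, 1627 and 1486 FPKM in GAP-2/3 and 1467 and 2399 FPKM in GAP-scr. Rpl30 went the other way, with 367 and 260 FPKM in GAP-2, 252 and 248 FPKM in GAP-2/3 and 271 and 170 FPKM in GAP-scr. These 3 genes, with Rpl8, Rpl38, Rpl31, Trp53, Cdkn1a, Zmat3, Sesn2 and Eef1a1, are named after their values were seen.

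**Figure D4:**
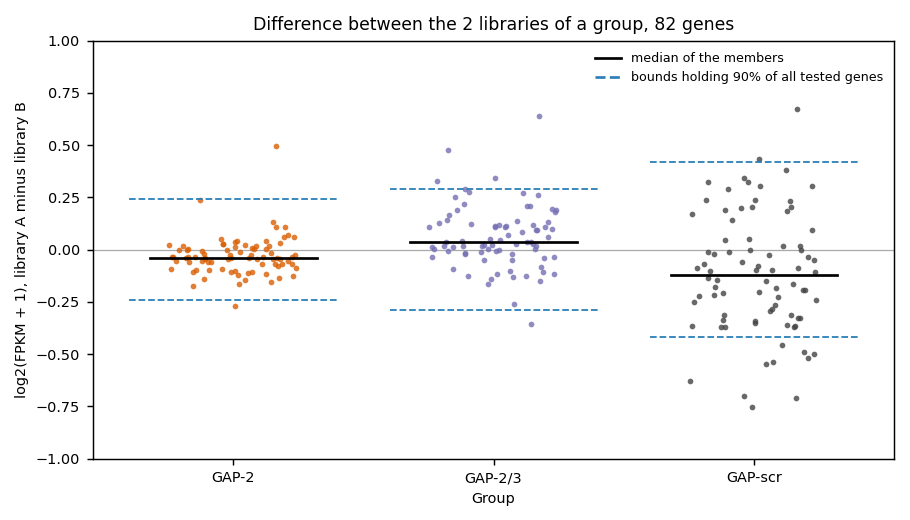
Difference between library A and library B on the log2(FPKM + 1) scale for the 82 genes in each group, with the median of the genes as a black bar and, dashed, the bounds that hold 90% of all tested genes. Points are spread most in GAP-scr, where 58 of 82 lie below 0; Rps27 in GAP-2/3, at -4.63, is off the scale.

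Library B of GAP-scr was the higher of the pair in 58 of the 82 genes, and library A in 24. Of the 24 genes with library A higher, 11 were among those that rose (45.8%), and of the 58 with library B higher, 2 were (3.45%). Over all tested genes these shares were 28.4% and 19.98%. Without GAP-scr library A, the median log2 change in the averaged arms was 0.05 over the 82 genes and 0.10 over all tested genes. In that fit 45 of the 82 estimates were above 0, a count not given here for all tested genes. Without GAP-scr library B, the medians were 0.20 and 0.10, and 77 estimates were above 0, again without the count over all tested genes. In the same order, the medians were 0.16 and 0.11 without GAP-2 A, and 0.12 and 0.09 without GAP-2 B. They were 0.14 and 0.10 without GAP-2/3 A, and 0.17 and 0.10 without GAP-2/3 B. With the libraries brought to a common median 3 genes were higher (Rpl7, Rpl7l1 and Rps25) and Rplp2 lower, and with quantile normalization 10 and 1.

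The ribosomal RNA precursor Rn45s was listed at 4090 and 174 FPKM in GAP-2, 120 and 93.2 FPKM in GAP-2/3 and 3387 and 176 FPKM in GAP-scr. Library A was thus high in GAP-2 and GAP-scr. Without these 2 libraries, the median log2 change in the averaged arms was 0.06 over the 82 genes and 0.11 over all tested genes. In that fit 46 of the 82 estimates were above 0, a count not given here for all tested genes.

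For GAP-2 alone against GAP-scr, 6 genes rose and 0 fell, against 10.4% higher and 4.18% lower over all tested genes. Of the 10993 tested genes 3492 had an unadjusted p under 0.05 in limma, and of the 82 genes 24 did, in either direction. Among them were Rpl22l1 (0.47 ± 0.14), Rps27l (0.45 ± 0.12), Rps25 (0.43 ± 0.12), Rpl7 (0.41 ± 0.11) and Rpl4 (0.37 ± 0.11), as log2 changes with SE in limma, with adjusted p of 0.0304 to 0.0479. Rpl22l1, the paralogue of the RNA-binding protein Rpl22, had 170 and 185 FPKM in GAP-2, 157 and 135 FPKM in GAP-2/3 and 149 and 110 FPKM in GAP-scr. Rpl22 itself had 226 and 253 FPKM in GAP-2, 261 and 216 FPKM in GAP-2/3 and 188 and 217 FPKM in GAP-scr, and did not pass. None of the 6 calls was made when only the GAP-2 and GAP-scr libraries were fitted or when the libraries were brought to a common median. The calls of this arm also changed when single libraries were left out.

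For GAP-2/3 alone against GAP-scr, 11 genes rose and 1, Rplp2, fell, against 28.0% higher and 11.3% lower over all tested genes. The median log2 change of 0.12 was near the 0.13 of all tested genes. The highest were Rpl7l1 (0.48 ± 0.10), Rpl7 (0.46 ± 0.11), Rps25 (0.44 ± 0.12), Rpl23a (0.44 ± 0.13), Rps27a (0.41 ± 0.12) and Rps4x (0.40 ± 0.12), with limma adjusted p of 0.00434 to 0.0239. Rpl23a, at the tunnel exit where factors meet the nascent chain, had 3947 and 4061 FPKM in GAP-2, 4705 and 5272 FPKM in GAP-2/3 and 3978 and 3371 FPKM in GAP-scr. Both GAP-2/3 libraries were above the other 4, while GAP-2 overlapped GAP-scr. Rplp2 had a log2 change of -0.65 ± 0.15 (limma adjusted p = 0.00654). With the libraries brought to a common median 1 gene was higher and 2 lower. Leaving out single libraries changed the calls of this arm as well. Rpl7, Rps25, Rpl4 and Rps27l passed in each arm; the arms share the same controls.

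Between the arms, GAP-2/3 against GAP-2, 0 of the 82 genes passed in either direction in limma, against 6.50% higher and 3.65% lower over all tested genes. An unadjusted p under 0.05 was found for 3 of the 82 (Rps27, Rpl23a and Rpl7l1) and for 2854 of the 10993 tested genes. The log2 change of Rpl23a was 0.31 and that of Rpl7l1 was 0.23, GAP-2/3 over GAP-2. The median log2 change was -0.03, against 0.05 over all tested genes. Fits with the replicate letter as a block, with only these 4 libraries, or without GAP-scr A, GAP-scr B, GAP-2/3 A or both libraries high in Rn45s called 1 gene higher.

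Among the paralogue pairs with both genes in the table, Rpl36a had 1538 and 1653 FPKM in GAP-2, 1841 and 1535 FPKM in GAP-2/3 and 1337 and 1706 FPKM in GAP-scr. Rpl36al, its close paralogue, had 714 and 727 FPKM in GAP-2, 787 and 690 FPKM in GAP-2/3 and 726 and 776 FPKM in GAP-scr, and neither passed. Rpl3, Rpl10, Rpl39 and Rps4x have paralogues that were not analysed here. Rpl3, a core protein near the peptidyl transferase centre, had 1028 and 1095 FPKM in GAP-2, 1140 and 1121 FPKM in GAP-2/3 and 847 and 1000 FPKM in GAP-scr (log2 change 0.25 ± 0.10, limma adjusted p = 0.0741). Rps6, the substrate of S6 kinase, had 1037 and 1036 FPKM in GAP-2, 937 and 914 FPKM in GAP-2/3 and 878 and 965 FPKM in GAP-scr (0.09 ± 0.09, limma adjusted p = 0.47).

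Fau and Gnb2l1, outside the symbol rule, did not pass. Fau had 1141 and 1180 FPKM in GAP-2, 1166 and 1195 FPKM in GAP-2/3 and 1187 and 1208 FPKM in GAP-scr. Gnb2l1 had 1908 and 1994 FPKM in GAP-2, 1737 and 1684 FPKM in GAP-2/3 and 1658 and 2086 FPKM in GAP-scr.

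A list of 11 genes held Rpl5, Rpl11, Mdm2, Mdm4, Trp53 and p53 targets such as Cdkn1a, Perp and Rps27l. Against 24.5% higher and 9.57% lower over all tested genes, 4 of the 11 rose and 0 fell in the mean of both arms. They were Rpl11, with 1611 and 1676 FPKM in GAP-2, 1810 and 1762 FPKM in GAP-2/3 and 1542 and 1261 FPKM in GAP-scr (log2 change 0.30 ± 0.11, limma adjusted p = 0.0489), Rps27l, Mdm2 and Perp. Rpl5 had 856 and 893 FPKM in GAP-2, 857 and 701 FPKM in GAP-2/3 and 683 and 733 FPKM in GAP-scr and did not pass (0.22 ± 0.11, limma adjusted p = 0.127). Mdm2, the ubiquitin ligase of p53, had 96.7 and 94.7 FPKM in GAP-2, 91.8 and 92.6 FPKM in GAP-2/3 and 65.7 and 49.2 FPKM in GAP-scr (0.71 ± 0.11, limma adjusted p = 0.00114). Perp, a p53 target of cell junctions, had 10.5 and 10.6 FPKM in GAP-2, 9.32 and 10.5 FPKM in GAP-2/3 and 0.466 and 0.750 FPKM in GAP-scr. Trp53 did not pass in the mean of both arms (-0.28, limma adjusted p = 0.0779), nor did Cdkn1a, a p53 target that blocks the cell cycle (-0.22, limma adjusted p = 0.0865). In GAP-2/3 against GAP-scr, where 28.0% of all tested genes were higher and 11.3% lower, 4 of the 11 rose and 4 fell. Those that fell were Cdkn1a (-0.37, limma adjusted p = 0.0189), Trp53 (-0.39, limma adjusted p = 0.0382), Zmat3 and Sesn2, and the 4 that rose were those called in the averaged arms. In GAP-2 against GAP-scr, 3 rose and 0 fell, against 10.4% higher and 4.18% lower over all tested genes.

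Of 28 other tested genes with TOP messages, such as elongation factors, 9 rose (32.1%) and 1 fell (3.57%) in the averaged arms. Over all tested genes the shares were 24.5% and 9.57%, and the median log2 change was 0.10 in both sets. Npm1, a nucleolar chaperone, had 768 and 833 FPKM in GAP-2, 760 and 694 FPKM in GAP-2/3 and 534 and 456 FPKM in GAP-scr (0.63 ± 0.10, limma adjusted p = 0.0013). Vim, an intermediate filament gene, rose by 0.68, and the snoRNA host genes Gas5 and Snhg1 by 0.63 and 0.56. Eef1a1, the most abundant of them, had 6707 and 6923 FPKM in GAP-2, 6845 and 7009 FPKM in GAP-2/3 and 5738 and 6091 FPKM in GAP-scr and did not pass (0.22, limma adjusted p = 0.11).

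Of 18 tested regulators of ribosomal protein messages, 5 rose and 5 fell in the averaged arms (27.8% each), against 24.5% and 9.57% of all tested genes. In GAP-2, 0 rose and 1 fell, against 10.4% and 4.18%. In GAP-2/3, 5 rose and 7 fell, against 28.0% and 11.3%. The 4 regulators with the smallest p in the averaged arms all fell. Rptor, the subunit of mTORC1 that binds its substrates, had 24.0 and 20.7 FPKM in GAP-2, 15.7 and 17.0 FPKM in GAP-2/3 and 36.0 and 32.02 FPKM in GAP-scr (-0.80 ± 0.10, limma adjusted p = 0.000319). Larp1 had 30.01 and 27.2 FPKM in GAP-2, 19.96 and 24.7 FPKM in GAP-2/3 and 38.7 and 32.4 FPKM in GAP-scr (-0.48 ± 0.12, limma adjusted p = 0.0098). Rps6kb2, an S6 kinase, and Eif4ebp2, an inhibitor of translation initiation, fell by 0.48 and 0.43 on the log2 scale.

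Of 16 chaperones and importers of ribosomal proteins, 3 rose and 1 fell in the averaged arms, against 24.5% and 9.57% of all tested genes. In GAP-2, 2 rose and 0 fell, against 10.4% and 4.18%. In GAP-2/3, 3 rose and 3 fell, against 28.0% and 11.3%. Pdcd2, which in human cells escorts Rps2, had 23.3 and 24.6 FPKM in GAP-2, 22.2 and 21.0 FPKM in GAP-2/3 and 13.2 and 15.7 FPKM in GAP-scr (0.63 ± 0.10, limma adjusted p = 0.00132). Nap1l1, a histone chaperone, and the importin Ipo7 rose by 0.38 and 0.35, and the importin Ipo4 fell by 0.37 on the log2 scale. Of 76 mitochondrial ribosomal protein genes 16 rose (21.1%) and 0 fell, against 24.5% and 9.57% of all tested genes. Their median log2 change was 0.14, against 0.10 over all tested genes. Those that rose included Mrps18c by 0.78, Mrpl40 by 0.47, Mrpl42 by 0.40 and Mrpl39 by 0.40. Of 743 other tested genes at 100 FPKM or more on average, 181 rose (24.4%) and 86 fell (11.6%).

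None of the 82 genes lay under one of the 798 ChIRP peaks, against 1.79% of the 10266 tested genes placed by symbol; with 5 kb added on both sides the count stayed 0 (2.11% of tested genes). The nearest were Rpl11 at 13.1 kb and Rpl14 at 20.7 kb. Ribosomal protein genes are short, with a median span of 3.18 kb against 23.2 kb for tested genes. The submitters' processing notes name mm9, but 1 peak lies past the end of the mm9 chromosome X, a length known in general, so gene positions of GRCm38.p6 were used, and the counts hold only if that build is right.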

How the data were processed

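Polyadenylated RNA was prepared with a stranded TruSeq kit, per the labels' protocols. The authors deposited 1 table of FPKM for 11228 genes and 6 libraries, and 798 merged ChIRP peaks with a score each, of unstated meaning; the deposited score was used only to filter peaks. The submitters' processing notes name mm9 as the build and, with no roles or versions, TopHat2, Bowtie2, Cuffdiff, Cufflinks, bedtools, MACS, cutadapt, Trimmomatic, FastQC and CASAVA. FPKM keeps no depth, so the depth and the counting error cannot be given, and reads shared with pseudogenes may be split in ways the values do not show.

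The members and lists were chosen with earlier results of these data known. Values were taken as log2(FPKM + 1) for the 10993 genes that averaged 1 FPKM or more; all 82 members passed this filter. One limma fit (limma 3.58.1, R 4.3.3) took all 3 groups, with an intensity trend, with Benjamini-Hochberg adjustment over all tested genes and a threshold of 0.05. Changes and their SE keep that scale, so changes of low genes are understated. The fit was also run on simulated data with an equal spread in all groups and no library-wide differences. Such a run cannot speak to the differences between the GAP-scr libraries. Named genes were the up to 6 highest and 6 lowest calls of each contrast, the 5 highest and 5 lowest levels, paralogue pairs, the stalk, the 5S proteins, Rps6, and up to 4 genes of smallest p from each list. Tables were made with Python 3.11.15 and pandas 2.3.3. Charme is not analysed here, and some genes the rule picks are not reported here. Alternatives were other pseudocounts, filters, scalings, thresholds and libraries.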

Additional observations from a re-analysis of the deposited data

How the results depend on the processing

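The counts of ribosomal protein genes kept their size under another pseudocount or no filter on low values, except that 2 genes were lower in GAP-2/3 with a pseudocount of 0.1. A mean of at least 5 FPKM gave 1 gene lower in GAP-2 and 2 lower in GAP-2/3. With libraries brought to a common median, 3 genes were higher in both arms averaged, 0 in GAP-2 and 1 in GAP-2/3, with 2 lower in GAP-2/3; quantile normalization left 3 higher and 1 lower in GAP-2, and 2 lower in GAP-2/3. The median of all tested genes was 0.02 after that scaling and 0.00 after quantile normalization, against 0.10 as deposited. A threshold of 0.1 gave 26 higher and 2 lower in both arms averaged, 12 and 1 for GAP-2, and 19 and 3 for GAP-2/3. Only the compared libraries gave 0 higher in GAP-2 and 1 higher in GAP-2/3 against GAP-2. Without both libraries high in Rn45s, 20 were higher and 9 lower in both arms averaged, 16 and 5 for GAP-2, 19 and 10 for GAP-2/3, and 1 higher in GAP-2/3 against GAP-2. Leaving out each library in turn gave 3 to 22 higher and 0 to 11 lower in both arms averaged, 0 to 19 and 0 to 8 for GAP-2, 2 to 22 and 0 to 13 for GAP-2/3, and 0 to 1 higher in GAP-2/3 against GAP-2; the cause was not tested.

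Same-letter libraries deviated together at a correlation of 0.36 for GAP-2 and GAP-scr, -0.13 for GAP-2/3 and GAP-scr and -0.18 for the 2 arms. The letters were taken as names only, since the labels state no pairing. A shared handling of GAP-2 A and GAP-scr A, both high in Rn45s, was not tested. With the replicate letter as a block, 14 genes rose and 1 fell in the averaged arms, 7 and 1 for GAP-2, 12 and 1 for GAP-2/3, and 1 and 0 between the arms. Of the 14 genes called in the mean of both arms, 12 kept the call under the block, 13 without the intensity trend, 10 with quantile normalization and 4 with libraries brought to a common median. Over the called values of named genes, 50 in all, 0 changed sign in any alternative. These values were chosen by their calls and the alternatives use the same libraries, so a kept sign says little. Of the 50, 28 lost the call with libraries brought to a common median and 14 with quantile normalization. The share of summed FPKM differed by 0.13 to 1.31 percentage points, higher in the gapmer libraries, when single libraries were left out, and by -0.00307 points without both libraries high in Rn45s. With 2 libraries a group, small changes may be missed.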
